A study of Mus musculus with 6 samples.

Results

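The genes followed were 9 listed together as club cell secretory genes of the airway, chosen by name from a count table of 25860 genes. They are the secretoglobins Scgb1a1, Scgb3a1 and Scgb3a2, the metabolic enzymes Cbr2, Aldh1a1 and Aldh1a7, and the airway defence proteins Bpifa1, Bpifb1 and Reg3g. All 9 were in the table and all 9 passed the filter on low counts. The RNA came from normal-looking lung of 3 mice labelled RAG1-/- (replicates 1, 2 and 3) and 3 labelled RAG1-/-Sgo1-/+ (replicates 4, 5 and 6), with 1 library per mouse. All 6 mice were 12 months old, untreated, on a C57BL/6 background, and labelled as lacking RAG1, which is needed to assemble antibody and T-cell receptor genes. The second group also carried only 1 working allele of Sgo1, a guardian of chromosome cohesion, and served as a model of chromosome instability in every tissue. The comparison asked how lung gene expression differed when chromosome instability was added to the loss of adaptive immunity. The study used both sexes, and the tissue was taken as a whole, so each value is a mixture of all lung cells.

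Club cells are dome-shaped secretory cells that line the airways, most densely in the bronchioles of the mouse. They release secretoglobins, a family of small secreted proteins, into the airway fluid, carry enzymes that break down inhaled chemicals, and act as progenitors that renew the bronchiolar epithelium. Proteins of the BPIF family and the lectin Reg3g are made by secretory cells mainly of the larger airways and act against microbes at the surface. In bulk tissue, fewer club cells and less RNA per club cell cannot be told apart.

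Depth ran from 3205822 to 9366774 reads on genes per library, and levels are given as counts scaled to 1e6 of these reads (CPM), so that 3 reads corresponded to 0.320 to 0.936 CPM. Replicates 2 and 6 stood apart from the others. Replicate 2 held B-cell genes against its RAG1-/- label (summed level of 8 B-cell and plasma-cell genes 918 CPM, compared with 18.7 to 23.9 CPM in the other 5 libraries), and its Igkc read count of 1853 compared with 0 to 8 elsewhere. Replicate 6 held goblet-cell genes (summed level of 8 genes 2606 CPM, compared with 16.0 to 60.6 CPM elsewhere). Replicate 1 was the only library with a high level of Xist, the RNA of the inactive X chromosome, at 824 CPM compared with 0.605 to 1.62 CPM in the others, so that sex was not balanced between the groups. Sgo1 had 0 to 6 reads in any library, too few to check the genotype, and Rag1 reads (8 to 24 per library) were present in both groups. The alveolar type 2 markers that define lung tissue were abundant in all 6 libraries, with a summed level of 32804 to 44239 CPM.

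None of the 9 genes passed the test for a difference between the groups, and the levels of the groups overlapped for each. With the edgeR quasi-likelihood test over 17231 genes, 0 of 9 passed a Benjamini-Hochberg adjusted *P* of 0.05 with a 2-fold difference, against a background of 0% (0 genes), and their adjusted *P* values ran from 0.834 to 0.995. At an unadjusted *P* under 0.05 the count was again 0 of 9, against a background of 5.66% (976 genes). DESeq2 called 1 gene of all (0.0058%) and limma-voom 0 (0%), none of them a member. The groups were apart in CPM for 0 of 9 members and for 11.8% of genes tested. The fitted difference was higher in RAG1-/-Sgo1-/+ for 5 members and lower for 4, with a median log2 fold change of 0.01 compared with 0.03 over all genes tested. Permuting the CPM exactly over the 10 splits of the mice (two-sided), which allow no *P* below 0.1, gave 0.4 to 0.9 for the 9 genes.

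**Figure D1:**
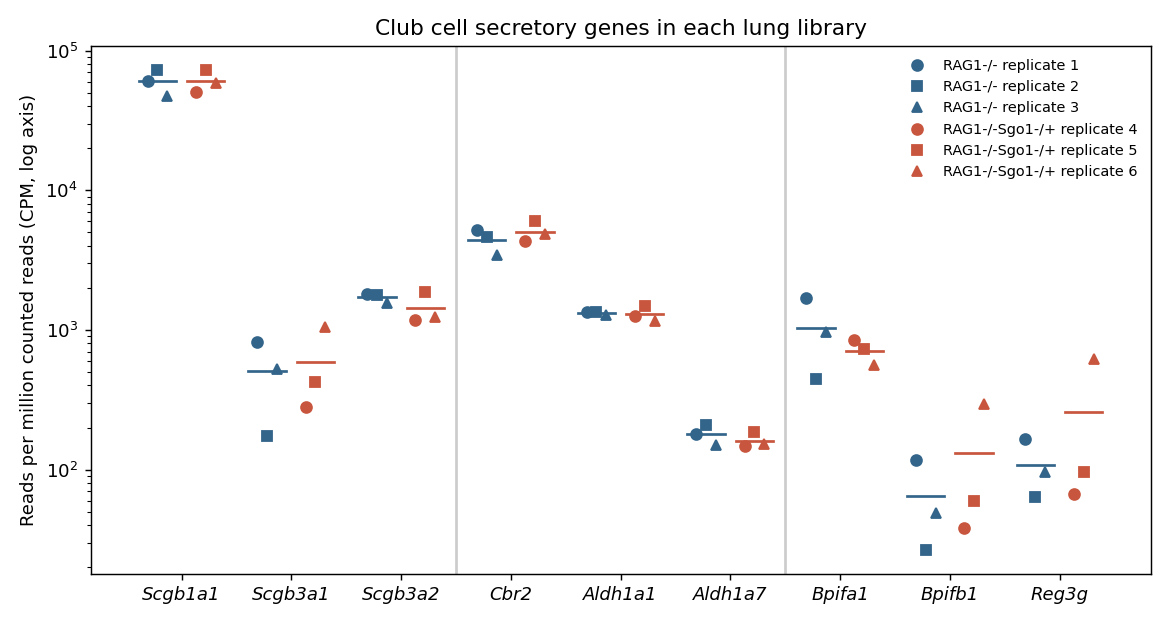
Level of each gene in each library, in CPM on a log axis, with 1 point per mouse and a line at the group mean. Points of RAG1-/- and RAG1-/-Sgo1-/+ overlap for all 9 genes, and the spread within a group is wide for Scgb3a1, Bpifa1, Bpifb1 and Reg3g.

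Compared per kilobase of transcript, the 9 genes spanned several orders of magnitude. Scgb1a1, also called club cell secretory protein, had 99791 to 153026 CPM per kilobase and ranked 1 of 23303 genes in every library. Cbr2, the carbonyl reductase of mouse lung, followed with 3116 to 5408 CPM per kilobase and ranks from 4 to 10. Scgb3a2 came next at 1402 to 2212 CPM per kilobase. These 3 levels did not overlap with each other in any library. From Scgb3a2 downwards each gene overlapped with its neighbour in the order of median level. Scgb3a1 ran from 290.2 to 1760.5, Bpifa1 from 402 to 1529, and Aldh1a1 from 489.6 to 634 CPM per kilobase. At the lower end stood Reg3g with 82.0 to 797, Aldh1a7 with 70.8 to 101 and Bpifb1 with 15.7 to 174 CPM per kilobase. The position of Bpifb1 among all genes moved the most, from rank 327 in replicate 6 to rank 4646 in replicate 2.

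**Figure D2:**
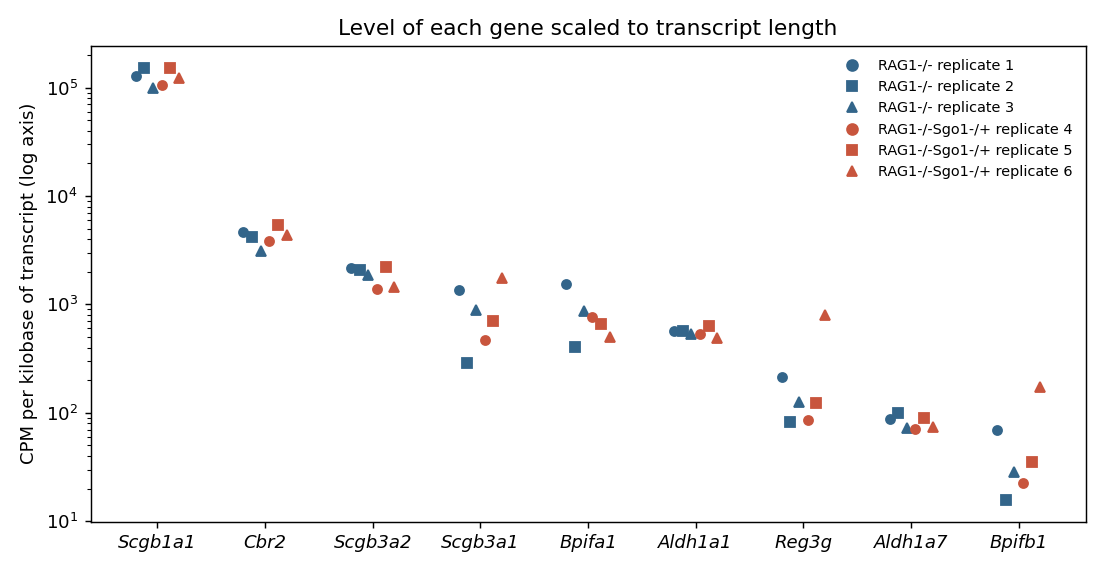
CPM per kilobase of the longest transcript (log axis) for the 9 genes in the 6 libraries, ordered by median level, with 1 point per mouse. Scgb1a1 has 99791 to 153026 and every point of the other genes at 5408 or below, while Reg3g and Bpifb1 have 1 point, replicate 6, far above the rest.

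The secretoglobins are small proteins secreted by club cells, of which Scgb1a1 is the best known and has anti-inflammatory activity in airway fluid. Scgb1a1 was at 60546, 72724 and 47501 CPM in the RAG1-/- mice and 50739, 72840.5 and 58556 CPM in the RAG1-/-Sgo1-/+ mice. The 2 groups covered nearly the same range, with replicates 2 and 5 the highest and replicate 3 the lowest. The mean level was 60257 ± 12614 CPM for RAG1-/- and 60712 ± 11207 CPM for RAG1-/-Sgo1-/+ (SD, 3 mice each), a log2 fold change of 0.01 (SE 0.19, 95% interval -0.41 to 0.43, edgeR adjusted *P* = 0.995). Scalings that moved all genes together by up to 0.03 on the log2 scale gave -0.03 with TMM factors and -0.01 with DESeq2 size factors. Within each library Scgb1a1 made up 84.3% to 89.3% of the summed CPM of the 9 genes.

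Scgb3a2 encodes a secretoglobin made in the bronchi and bronchioles. Scgb3a2 was at 1809, 1766 and 1571 CPM in the RAG1-/- mice and 1181, 1863 and 1232 CPM in the RAG1-/-Sgo1-/+ mice. Replicates 4 and 6 were below all RAG1-/- libraries and replicate 5 was above them. The mean level was 1715 ± 127 CPM for RAG1-/- and 1425 ± 379.8 CPM for RAG1-/-Sgo1-/+ (SD, 3 mice each), a log2 fold change of -0.27 (SE 0.18, 95% interval -0.67 to 0.14, edgeR adjusted *P* = 0.855). Without replicate 5 the log2 fold change was -0.51 (unadjusted *P* = 0.0082, adjusted *P* = 0.867, edgeR). Reads of Scgb1a1 outnumbered those of Scgb3a2 by a ratio of 33.5, 41.2 and 30.2 in the RAG1-/- mice and 43.0, 39.1 and 47.5 in the RAG1-/-Sgo1-/+ mice, so that the ratio overlapped between the groups.

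Scgb3a1 encodes a secretoglobin of the larger airways. Scgb3a1 was at 814, 174 and 528 CPM in the RAG1-/- mice and 281, 422 and 1053 CPM in the RAG1-/-Sgo1-/+ mice. Replicate 6 was the highest and replicate 2 the lowest, and each group held libraries with high and low levels. On average the groups stood at 505 ± 321 CPM for RAG1-/- and 585 ± 411 CPM for RAG1-/-Sgo1-/+ (SD, 3 mice each), a log2 fold change of 0.21 (SE 0.54, 95% interval -1.01 to 1.42, edgeR adjusted *P* = 0.967). The direction rested on single libraries: the log2 fold change was -0.53 without replicate 6, -0.20 without replicate 2 and 0.74 without replicate 1. With both replicates 2 and 6 left out it was -0.93 (unadjusted *P* = 0.0064, adjusted *P* = 0.993, edgeR).

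Cbr2 reduces carbonyl compounds and is abundant in club cells of the mouse. Cbr2 was at 5191, 4643 and 3459 CPM in the RAG1-/- mice and 4300.2, 6003 and 4867 CPM in the RAG1-/-Sgo1-/+ mice. Replicate 5 was the highest and replicate 3 the lowest, with libraries of both groups in between. Group means were 4431 ± 885 CPM for RAG1-/- and 5057 ± 867 CPM for RAG1-/-Sgo1-/+ (SD, 3 mice each), a log2 fold change of 0.19 (SE 0.18, 95% interval -0.21 to 0.60, edgeR adjusted *P* = 0.885). Of the 961 windows of 150 bases in its transcript, the length of a read, 21 (2.19%) are also found in the gene Gm11771, so a small part of its reads could be shared. For the other 8 members this number was 0.

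Aldh1a1 oxidises retinal to retinoic acid, and Aldh1a7 is its closest relative in the mouse. Aldh1a1 was at 1334, 1347 and 1270.0 CPM in the RAG1-/- mice and 1258, 1494 and 1154 CPM in the RAG1-/-Sgo1-/+ mice. Replicates 5 and 6, both RAG1-/-Sgo1-/+, were the highest and the lowest, and the 3 RAG1-/- libraries lay between them. The mean level was 1317 ± 41.2 CPM for RAG1-/- and 1302 ± 174 CPM for RAG1-/-Sgo1-/+ (SD, 3 mice each), a log2 fold change of -0.02 (SE 0.13, 95% interval -0.31 to 0.28, edgeR adjusted *P* = 0.991). Aldh1a7 was at 180.1, 208 and 151 CPM in the RAG1-/- mice and 146, 185 and 152 CPM in the RAG1-/-Sgo1-/+ mice. Replicate 2 was the highest, and the other RAG1-/- libraries lay within the range of the second group. Means were 179.5 ± 28.5 CPM for RAG1-/- and 161 ± 21.1 CPM for RAG1-/-Sgo1-/+ (SD, 3 mice each), a log2 fold change of -0.16 (SE 0.15, 95% interval -0.50 to 0.19, edgeR adjusted *P* = 0.888). For the 3 enzymes, as for Scgb1a1 and Scgb3a2, the 95% interval lay within a 2-fold difference in either direction.

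The transcripts of Aldh1a1 and Aldh1a7 are 89.3% identical over 2039 aligned bases, and no window of 150 bases is shared exactly. The ratio of reads on Aldh1a1 to reads on Aldh1a7 was 7.40, 6.49 and 8.43 in the RAG1-/- mice and 8.60, 8.07 and 7.62 in the RAG1-/-Sgo1-/+ mice. Both genes thus kept a similar proportion in all 6 libraries. Their upstream regions are shown because the pair lies on the same chromosome in opposite orientation and shares most of its bases near this start. The windows are the 250 bases before a transcription start on GRCm38.p6, from RefSeq, with capitals for bases that align identically between the genes. Aldh1a1 (the second of its annotated starts) lies at chr19:20601718-20601967 on the plus strand and Aldh1a7 at chr19:20727557-20727806 on the minus strand.
Aldh1a1: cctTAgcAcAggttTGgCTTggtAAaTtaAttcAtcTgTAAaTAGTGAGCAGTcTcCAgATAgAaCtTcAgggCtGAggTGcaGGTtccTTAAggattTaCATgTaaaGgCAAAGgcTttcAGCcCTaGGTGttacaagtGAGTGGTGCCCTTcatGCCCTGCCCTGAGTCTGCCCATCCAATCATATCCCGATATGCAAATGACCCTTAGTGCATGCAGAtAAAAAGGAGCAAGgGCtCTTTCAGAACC
Aldh1a7: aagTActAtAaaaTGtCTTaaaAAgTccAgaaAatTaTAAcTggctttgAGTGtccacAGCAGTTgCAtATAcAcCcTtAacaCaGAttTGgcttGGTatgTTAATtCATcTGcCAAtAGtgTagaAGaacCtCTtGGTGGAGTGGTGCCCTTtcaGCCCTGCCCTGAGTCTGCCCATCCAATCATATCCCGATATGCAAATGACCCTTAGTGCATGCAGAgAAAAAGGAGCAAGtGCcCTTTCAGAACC
Of 232 aligned positions 176 (75.9%) were identical, and of the last 100 bases before the start 94 were identical. From the first annotated start of Aldh1a1, 140 of 225 aligned positions (62.2%) were identical to the Aldh1a7 window.

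The airway defence proteins varied widely between mice. Bpifa1, also called SPLUNC1, is a secreted lipid-binding protein of the larger airways. Bpifa1 was at 1691, 445 and 967 CPM in the RAG1-/- mice and 841, 731 and 559 CPM in the RAG1-/-Sgo1-/+ mice. Replicate 1 was the highest and replicate 2 the lowest, both RAG1-/-, and the 3 RAG1-/-Sgo1-/+ libraries lay between them. The mean level was 1034 ± 626 CPM for RAG1-/- and 711 ± 142 CPM for RAG1-/-Sgo1-/+ (SD, 3 mice each), a log2 fold change of -0.54 (SE 0.38, 95% interval -1.38 to 0.30, edgeR adjusted *P* = 0.855). It was 0.01 without replicate 1 and -0.90 without replicate 2 (unadjusted *P* = 0.0066, adjusted *P* = 0.987, edgeR).

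Bpifb1, also called LPLUNC1, is a larger secreted protein of the same family, found in mucous cells and glands. Bpifb1 was at 118, 26.7 and 48.6 CPM in the RAG1-/- mice and 38.4, 59.6 and 296 CPM in the RAG1-/-Sgo1-/+ mice. Replicate 6 exceeded every other library, and the remaining RAG1-/-Sgo1-/+ libraries lay within the RAG1-/- range. On average the groups stood at 64.3 ± 47.4 CPM for RAG1-/- and 131 ± 143 CPM for RAG1-/-Sgo1-/+ (SD, 3 mice each), a log2 fold change of 0.998 (SE 0.71, 95% interval -0.59 to 2.58, edgeR adjusted *P* = 0.859). Without replicate 6 the log2 fold change was -0.41, without replicate 2 it was 0.64, and without replicate 1 it was 1.77 (unadjusted *P* = 0.039, adjusted *P* = 0.702, edgeR).

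Reg3g is a lectin that binds the wall of Gram-positive bacteria and is induced in epithelium by interleukin 22 and interleukin 17. Reg3g was at 165, 63.2 and 96.7 CPM in the RAG1-/- mice and 66.5, 96.0 and 614 CPM in the RAG1-/-Sgo1-/+ mice. As for Bpifb1, replicate 6 was far above the other 5 libraries, which overlapped. Group means were 108 ± 52.0 CPM for RAG1-/- and 259 ± 308 CPM for RAG1-/-Sgo1-/+ (SD, 3 mice each), a log2 fold change of 1.24 (SE 0.71, 95% interval -0.34 to 2.82, edgeR adjusted *P* = 0.834). The log2 fold change was -0.42 without replicate 6, 0.97 without replicate 2 and 1.68 without replicate 1. With replicates 2 and 6 left out together, that of Reg3g was -0.69 (unadjusted *P* = 0.033, adjusted *P* = 0.993) and that of Bpifb1 -0.77 (unadjusted *P* = 0.079, adjusted *P* = 0.993) in edgeR. The higher fitted level of both genes in RAG1-/-Sgo1-/+ thus rested on replicate 6, and without it both were fitted lower.

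**Figure D3:**
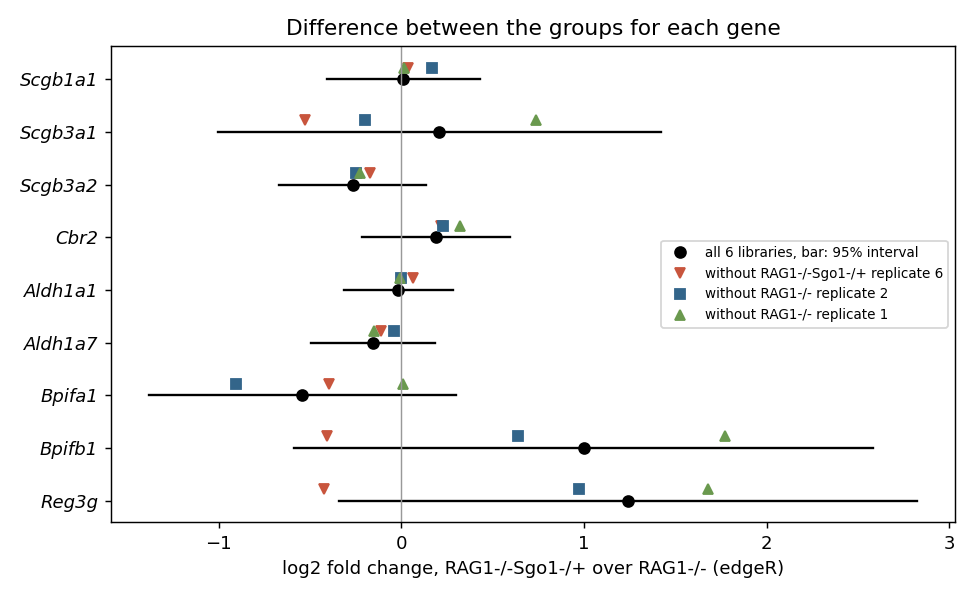
Log2 fold change of RAG1-/-Sgo1-/+ over RAG1-/- from edgeR for each gene (black point, with its 95% interval) and the same value with 1 library left out (coloured symbols). All 9 intervals include 0, and the symbols of Scgb3a1, Aldh1a1, Bpifa1, Bpifb1 and Reg3g lie on both sides of 0.

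The defence genes were compared by their ratios within each library. The ratio of Reg3g to Bpifb1 was 1.41, 2.37 and 1.99 in the RAG1-/- mice and 1.73, 1.61 and 2.07 in the RAG1-/-Sgo1-/+ mice, a range of 1.41 to 2.37 that includes replicate 6. The ratio of Bpifa1 to Bpifb1 was 14.4, 16.7 and 19.9 in the RAG1-/- mice and 21.9, 12.3 and 1.89 in the RAG1-/-Sgo1-/+ mice. In the 5 libraries other than replicate 6 this ratio ran from 12.3 to 21.9, a spread similar to that of Reg3g to Bpifb1, so the contrast between the pairs rests on replicate 6. In that library the Bpifa1 level of 559 CPM was next to the lowest, that of replicate 2. The upstream regions of these 3 genes are shown because Bpifa1 moved apart from Bpifb1 and Reg3g in replicate 6. They are the 250 bases before a start on GRCm38.p6 from RefSeq, with capitals for matches to any of 4 motifs searched on both strands. They lie at chr2:154142630-154142879 (Bpifa1, plus strand), chr2:154200130-154200379 (Bpifb1, second annotated start, plus strand) and chr6:78468875-78469124 (Reg3g, minus strand).
Bpifa1: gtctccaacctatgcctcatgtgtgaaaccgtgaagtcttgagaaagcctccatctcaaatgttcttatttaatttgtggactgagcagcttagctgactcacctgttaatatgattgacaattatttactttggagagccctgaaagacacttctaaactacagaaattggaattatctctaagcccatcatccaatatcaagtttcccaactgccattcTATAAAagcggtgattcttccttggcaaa
Bpifb1: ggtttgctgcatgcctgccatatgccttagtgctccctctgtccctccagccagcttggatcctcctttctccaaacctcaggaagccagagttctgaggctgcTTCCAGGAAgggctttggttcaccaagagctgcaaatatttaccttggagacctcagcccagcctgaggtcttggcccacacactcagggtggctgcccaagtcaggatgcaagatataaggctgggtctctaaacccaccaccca
Reg3g: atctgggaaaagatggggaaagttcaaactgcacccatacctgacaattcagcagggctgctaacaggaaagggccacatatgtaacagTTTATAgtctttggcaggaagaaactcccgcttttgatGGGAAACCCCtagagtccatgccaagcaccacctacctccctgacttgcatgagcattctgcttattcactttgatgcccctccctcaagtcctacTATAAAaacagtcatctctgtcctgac
The TATA box TATAAA was found 29 bases before the start of Bpifa1 and 27 bases before that of Reg3g, and Reg3g held it once more on the reverse strand. It is found in 12.4% of the 32841 windows of this length. The STAT motif TTCNNNGAA, which reads the same on both strands in its fixed letters, was found in the Bpifb1 window 146 bases before the start (7.02% of windows). A match to the NF-kappaB motif was found 123 bases before the start of Reg3g (3.90% of windows). The forkhead core TGTTTA (12.0% of windows) was not found in the windows of these 3 genes, and the first annotated start of Bpifb1 held none of the 4 motifs. Among the other members with a window, Scgb3a1 held the STAT motif 194 bases and Aldh1a7 the TATA box 244 bases before the start. These are matches of letters only.

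**Figure D4:**
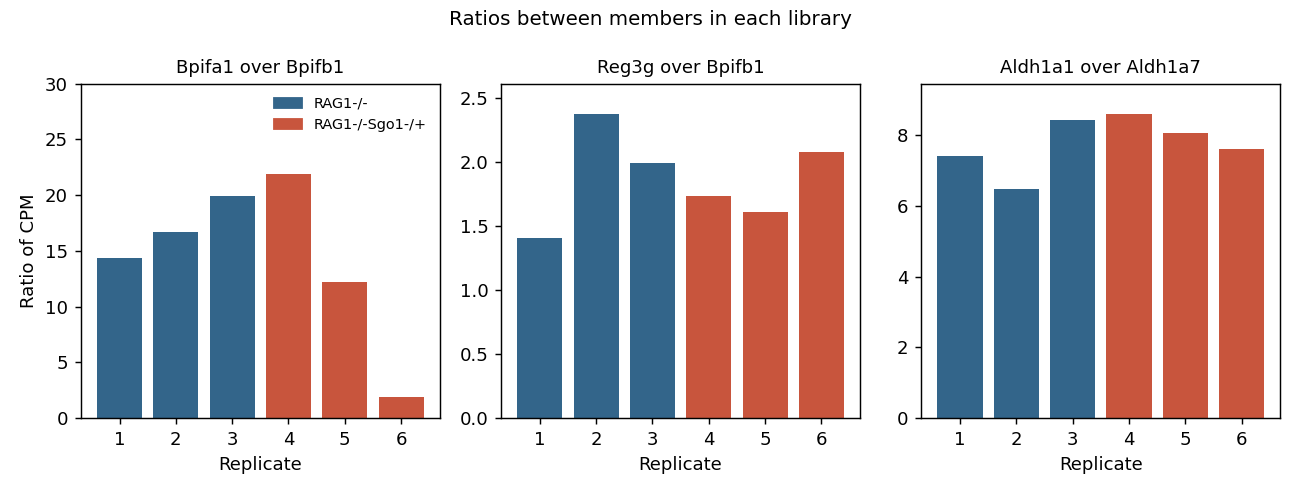
Ratio of CPM between pairs of genes in each of the 6 libraries (bars, linear axis from 0). Bpifa1 over Bpifb1 falls to 1.89 in replicate 6 from at least 12.3 in the others, while Reg3g over Bpifb1 stays between 1.41 and 2.37 and Aldh1a1 over Aldh1a7 between 6.49 and 8.60.

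By their range over all 6 libraries the members formed a narrower and a wider set. Aldh1a1 had the narrowest range, with a highest level 1.29 times its lowest, and 84.7% of the 11040 genes with at least 10 CPM on average varied more on the log2 scale. The ratio was 1.42 for Aldh1a7, which lay in the middle of all genes (51.2% varied more). It was 1.53 for Scgb1a1, 1.58 for Scgb3a2 and 1.74 for Cbr2, of which each varied more than most genes (33.2%, 24.6% and 30.1% varied more). In the wider set the ratio was 3.8 for Bpifa1, 6.07 for Scgb3a1, 9.71 for Reg3g and 11.1 for Bpifb1, and at most 2.02% of genes varied more. Replicate 2 had the lowest level of all 4 genes of the wider set, and replicate 6 the highest level of 3 of them, Bpifa1 being highest in replicate 1. The split runs across the protein families, since Scgb3a1 sat with the defence proteins and not with the other secretoglobins.

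**Figure D5:**
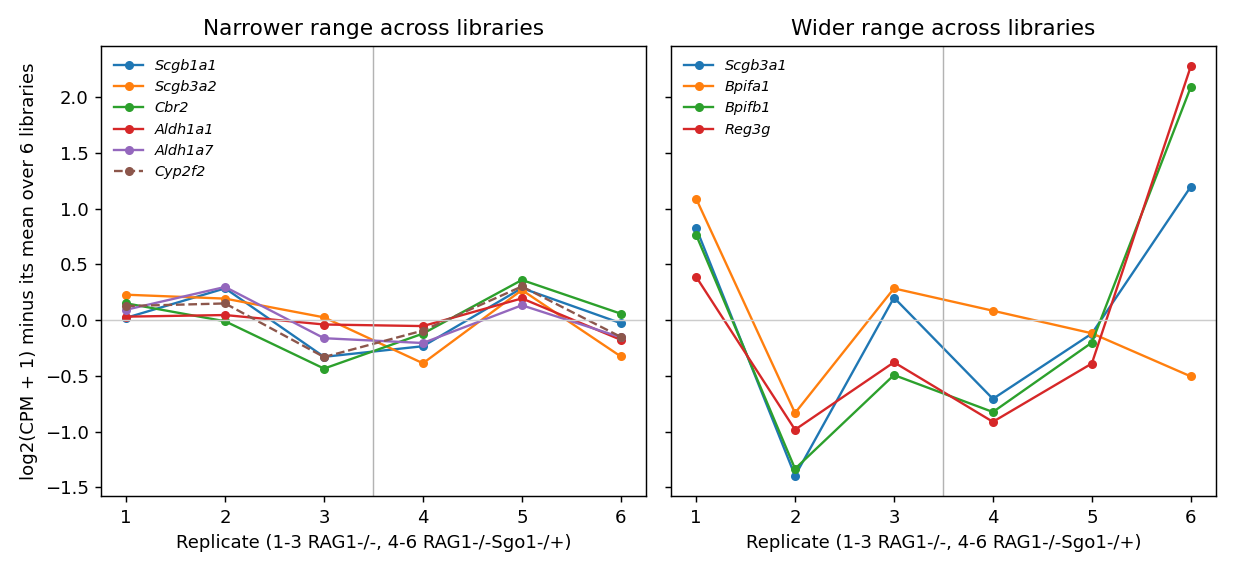
log2(CPM + 1) of each gene minus its own mean over the 6 libraries, for the 5 members of narrower range with Cyp2f2 (left) and the 4 of wider range (right). Lines only join the points of a gene. The genes on the left stay nearer their mean, while those on the right are lowest in replicate 2 and, except Bpifa1, highest in replicate 6.

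None of the 20 other club cell genes had an unadjusted *P* under 0.05 in either direction (background 3.15% higher and 2.52% lower), 11 were fitted higher and 9 lower, and their median log2 fold change was 0.02. Their summed level was 8003 to 10414 CPM in RAG1-/- and 9098 to 11194 CPM in RAG1-/-Sgo1-/+. Cyp2f2, a cytochrome P450 that activates naphthalene in club cells, was at 4374, 4445 and 3185 CPM in the RAG1-/- mice and 3755, 4941 and 3609 CPM in the RAG1-/-Sgo1-/+ mice, and its log2 fold change was 0.04 (SE 0.18, edgeR unadjusted *P* = 0.842, adjusted *P* = 0.983). Cyp2f2 was 34th and Aldh1a7 47th of 11039 genes in the likeness of its profile to that of Scgb1a1, measured as the root mean square difference in centred log2(CPM + 1) over the 6 libraries (0.10 and 0.11). Cbr2 was 257th, Aldh1a1 713th and Scgb3a2 1621st (the measure grows with a gene's own variation, so the members of wider range rank low against Scgb1a1). The genes nearest to Scgb1a1 were Strbp, Nudt13, Slc35e3, Ercc3 and Cd55 (0.06 to 0.07). Those nearest to Aldh1a1 were Arhgef25, Tmx4, Trim24, Lgals9 and Arid2 (0.03 to 0.04), and those nearest to Bpifa1 were Sult1d1, Unc79, Gm2223, Cytl1 and Edil3 (0.27 to 0.32).

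Among the 12 genes of airway secreted defence and transport, 1 had an unadjusted *P* under 0.05 and was higher (background 3.15%), 0 were lower, and the median log2 fold change was 0.08. This was Lcn2, the iron-sequestering lipocalin of airway defence, at 115, 66.7 and 55.4 CPM in the RAG1-/- mice and 110.1, 63.4 and 413 CPM in the RAG1-/-Sgo1-/+ mice. Its log2 fold change was 1.29 (SE 0.57, edgeR unadjusted *P* = 0.0481, adjusted *P* = 0.832), with replicate 6 far above the rest, and 0.13 without replicate 6. Of the 12 genes 7 were highest in replicate 6 and 2 lowest in replicate 2, and 1 gene was both. Among genes picked after their values were seen, the mucin Muc5b was at 229, 64.0 and 95.6 CPM in the RAG1-/- mice and 109, 161 and 319 CPM in the RAG1-/-Sgo1-/+ mice and was the gene with both. The lysozyme gene Lyz1 went the other way in replicate 6, at 783, 523 and 868 CPM in the RAG1-/- mice and 866, 439.6 and 271 CPM in the RAG1-/-Sgo1-/+ mice, and the protease inhibitor Slpi was lowest in replicate 1, at 25.9, 77.0 and 101 CPM in the RAG1-/- mice and 77.4, 40.4 and 90.5 CPM in the RAG1-/-Sgo1-/+ mice.

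Other genes of the same families were read from the same fit. Reads were absent for 24 of 30 secretoglobin genes, and the only one tested besides the members was Scgb1c1, at 26.9, 23.6 and 21.5 CPM in the RAG1-/- mice and 13.7, 23.2 and 9.36 CPM in the RAG1-/-Sgo1-/+ mice, with a log2 fold change of -0.61 (SE 0.28, edgeR unadjusted *P* = 0.0554, adjusted *P* = 0.832). Of 14 BPIF genes 9 had no reads, and Bpifb5, an airway member of the family, had a log2 fold change of 0.69 (SE 0.65, edgeR unadjusted *P* = 0.311, adjusted *P* = 0.882). Among the carbonyl reductases Cbr1 was at 99.9, 97.6 and 66.7 CPM in the RAG1-/- mice and 103, 114 and 103 CPM in the RAG1-/-Sgo1-/+ mice. Its groups did not overlap (1 of 3 carbonyl reductases tested besides Cbr2, background 11.8%). The log2 fold change of Cbr1 was 0.28 (SE 0.16, edgeR unadjusted *P* = 0.118, adjusted *P* = 0.840). Cbr3 differed by 0.31 (SE 0.22, edgeR unadjusted *P* = 0.188, adjusted *P* = 0.858) and Cbr4 by -0.36 (SE 0.24, edgeR unadjusted *P* = 0.169, adjusted *P* = 0.855) on the log2 scale. Aldh1a2, the retinal dehydrogenase of mesothelium, had a wider range than Aldh1a1, at 10.04, 128 and 179.9 CPM in the RAG1-/- mice and 90.7, 49.5 and 133 CPM in the RAG1-/-Sgo1-/+ mice.

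Transcription factors of club cells were fitted higher in 10 of 12 cases, and the share of all genes fitted higher was not computed. Their median log2 fold change was 0.11, compared with 0.03 over all genes tested, and 0 of 12 had an unadjusted *P* under 0.05. Nkx2-1, the master factor of lung epithelium that activates Scgb1a1, was at 399, 379 and 371 CPM in the RAG1-/- mice and 489, 459 and 412 CPM in the RAG1-/-Sgo1-/+ mice, so that the groups did not overlap (1 of 12 genes, background 11.8%), and its log2 fold change was 0.24 (SE 0.12, edgeR unadjusted *P* = 0.0730, adjusted *P* = 0.832). In Notch signalling, which directs airway cells to the secretory fate, 1 of 13 genes tested had an unadjusted *P* under 0.05 and was higher (background 3.15%), 0 were lower (background 2.52%), and the median was 0.09. This was the ligand Jag2, at 20.4, 14.3 and 13.9 CPM in the RAG1-/- mice and 23.8, 21.9 and 22.5 CPM in the RAG1-/-Sgo1-/+ mice, with a log2 fold change of 0.48 (SE 0.20, edgeR unadjusted *P* = 0.0380, adjusted *P* = 0.832). Hes5 had no reads. In retinoid metabolism and signalling, the pathway that Aldh1a1 feeds, 0 of 13 genes tested had an unadjusted *P* under 0.05, with a median log2 fold change of 0.12.

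Among 15 genes of the cytokines that induce Reg3g and of their receptors, 12 had enough reads to be tested. Il17a had no reads in any library, and Il22 had 2 reads, both in replicate 6. Il17f had 2 reads in replicate 3, 4 reads in replicate 5 and 0 in replicate 6. These reads were too few to test. Of the 12 genes tested 3 had an unadjusted *P* under 0.05 and were higher (background 3.15%), 0 were lower, and the median log2 fold change was 0.13. Il17rc, a subunit of the interleukin 17 receptor, was at 20.3, 21.8 and 19.7 CPM in the RAG1-/- mice and 29.1, 28.3 and 28.1 CPM in the RAG1-/-Sgo1-/+ mice, with a log2 fold change of 0.47 (SE 0.15, edgeR unadjusted *P* = 0.0100, adjusted *P* = 0.832). Il6ra, the interleukin 6 receptor, was at 16.1, 18.6 and 20.4 CPM in the RAG1-/- mice and 27.9, 24.1 and 27.1 CPM in the RAG1-/-Sgo1-/+ mice, with a log2 fold change of 0.52 (SE 0.17, edgeR unadjusted *P* = 0.0115, adjusted *P* = 0.832). Socs3, a feedback target of these receptors, was at 48.7, 52.9 and 45.6 CPM in the RAG1-/- mice and 56.6, 53.7 and 88.6 CPM in the RAG1-/-Sgo1-/+ mice, with a log2 fold change of 0.43 (SE 0.19, edgeR unadjusted *P* = 0.0497, adjusted *P* = 0.832) and its highest level in replicate 6, without which the log2 fold change was 0.17. For all 3 genes every RAG1-/-Sgo1-/+ library was above every RAG1-/- library, which is 3 of 12 genes tested (background 11.8%), and none of the 3 passed after adjustment.

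Markers of other airway cells were measured beside the members of wider range. The summed level of 8 goblet-cell genes was 18.6 to 60.6 CPM in RAG1-/- and 16.0 to 2606 CPM in RAG1-/-Sgo1-/+, of which the high value was that of replicate 6. Of 6 goblet genes tested 4 had an unadjusted *P* under 0.05 and were higher (background 3.15%), 0 were lower, the median log2 fold change was 2.74, and Tff1 had no reads. Clca1, a secreted protein of goblet cells, was at 14.0, 48.9 and 2.42 CPM in the RAG1-/- mice and 1.62, 2.59 and 2344 CPM in the RAG1-/-Sgo1-/+ mice and the mucin Muc5ac at 2.67, 2.42 and 1.21 CPM in the RAG1-/- mice and 1.82, 2.22 and 50.2 CPM in the RAG1-/-Sgo1-/+ mice. The log2 fold change of Clca1 was 5.20 (SE 2.10, edgeR unadjusted *P* = 0.0326, adjusted *P* = 0.832), and -3.31 without replicate 6. That of Muc5ac was 3.02 (SE 1.11, edgeR unadjusted *P* = 0.0220, adjusted *P* = 0.832), and -0.06 without replicate 6. Fcgbp, a mucus protein, was at 16.0, 6.87 and 10.9 CPM in the RAG1-/- mice and 10.9, 8.89 and 178 CPM in the RAG1-/-Sgo1-/+ mice, and the lectin Itln1 reached 16.8 CPM in replicate 6. Goblet genes were thus highest in the library with the highest Scgb3a1, Bpifb1 and Reg3g, and their part in those levels was not tested. The next highest goblet sum, 60.6 CPM, was that of replicate 2, which had the lowest level of these 3 genes, and replicate 1, with their next highest level, had 37.4 CPM. Clca1 made up most of the sum in replicates 6 and 2. The summed level of 6 basal-cell genes, all with reads, was 26.8, 6.87 and 15.1 CPM in the RAG1-/- mice and 10.5, 15.9 and 30.6 CPM in the RAG1-/-Sgo1-/+ mice. This sum was lowest in replicate 2 and highest in replicates 6 and 1, as for Scgb3a1, Bpifb1 and Reg3g. The single genes were mixed, since of the 6 genes 4 were highest in replicate 6 and 2 were lowest there. These 2, Krt14 and Ngfr, had 0 reads in replicate 6 and at most 10 and 12 reads in any library. Krt17, among the 4, had 4 reads in replicate 6, so these positions rest on few reads. Aqp3 was the largest part of the sum in replicate 6, at 13.7 CPM. The part of basal cells in the levels of Scgb3a1, Bpifb1 and Reg3g was not tested. Of 13 genes of the glands and cartilage of large airways, 7 had no reads (Col9a1, Matn1, Snorc, Dcpp1, Dcpp2, Dcpp3 and Bpifb9b), and their summed level was 2.02 to 3.84 CPM in RAG1-/- and 1.41 to 6.24 CPM in RAG1-/-Sgo1-/+.

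The members were also set against the ciliated cells, the other main cell type of the airway lining. The summed level of 12 ciliated-cell genes was 2618, 1943 and 1856 CPM in the RAG1-/- mice and 2409.9, 2738 and 2318 CPM in the RAG1-/-Sgo1-/+ mice. The ratio of the summed level of the 8 members other than Scgb1a1 to the ciliated sum was 4.32, 4.46 and 4.36 in the RAG1-/- mice and 3.37, 3.96 and 4.28 in the RAG1-/-Sgo1-/+ mice. Each ratio in RAG1-/-Sgo1-/+ was below each in RAG1-/-, by little in replicate 6, and the difference was not tested (single genes had groups apart in 11.8% of cases). Over the summed level of 8 general epithelial genes the ratio was 4.75, 4.50 and 4.08 in the RAG1-/- mice and 3.60, 5.20 and 4.405 in the RAG1-/-Sgo1-/+ mice, and the groups overlapped. With Scgb1a1 included, the ratio to the ciliated sum was 27.4, 41.9 and 29.9 in the RAG1-/- mice and 24.4, 30.6 and 29.5 in the RAG1-/-Sgo1-/+ mice, and the groups overlapped. Among the ciliated genes 1 of 12, Foxj1, the master factor of motile cilia, had an unadjusted *P* under 0.05 and was higher (background 3.15%), 0 were lower, and the median log2 fold change was 0.21. Its level was 286, 165 and 169 CPM in the RAG1-/- mice and 241, 383 and 301 CPM in the RAG1-/-Sgo1-/+ mice, with a log2 fold change of 0.58 (SE 0.24, edgeR unadjusted *P* = 0.0346, adjusted *P* = 0.832). Scgb1a1 and Cyp2f2 kept a ratio of 13.8, 16.4 and 14.9 in the RAG1-/- mice and 13.5, 14.7 and 16.2 in the RAG1-/-Sgo1-/+ mice.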

How the data were processed

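Total RNA of normal-looking lung from 6 mice was made into libraries with the TruSeq V2 kit, which does not keep strand, and sequenced as paired reads of 150 bases on a MiSeq. The table of raw counts per gene, as the authors deposited it, was made with GeneSifter against build 37.2 of the mouse genome. The values are unscaled integers, and since every library has 2 identical columns, 1 of them was used. The submitters' processing notes name BWA and edgeR with no role. How reads that map to several places were treated is not given in the sources used here. Between 63.5% and 69.0% of the counts above 0 in a library are even numbers, so read pairs may have been counted as 2 reads, and halved counts were tried. The authors' list of their comparison (fold ratios, *P* values, group means and ontology terms) was not used.

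Samples were grouped by their labels. Symbols were matched by Entrez Gene ID (24048 of 25860 genes, 93.0%). CPM are counts scaled to the total on genes. Genes with at least 10 counts over the 6 libraries (17231) entered edgeR 4.0.16 (R 4.3.3) and its quasi-likelihood test, scaled by the total alone. A call needed a Benjamini-Hochberg adjusted *P* below 0.05 and a 2-fold difference. SEs were taken as the log2 fold change over the root of F. DESeq2 1.42.0 and limma-voom (limma 3.58.1) were alternatives. The steps were tested on simulated data. Levels per kilobase use the longest annotated transcript. Variation is the SD of log2(CPM + 1) over the 6 libraries. Upstream sequences came from RefSeq on GRCm38.p6. A window was used for 7 of the 9 members, and none was used for Scgb1a1 and Scgb3a2. The counts are on an earlier build, so their coordinates are not given.

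The members, the 19 gene lists (3 of them the members by role) and the alternatives were chosen with earlier results of these data known. Named were all members, their tested family genes, in each list the genes with an unadjusted *P* under 0.05 (at most 5) or otherwise the 2 of highest mean CPM, the 5 genes most like Scgb1a1, Aldh1a1 and Bpifa1, and Sgo1, Rag1, Xist and Igkc. Muc5b, Lyz1, Slpi, Il22, Il17f, Aldh1a2, Krt14, Ngfr, Krt17 and genes at 0 were named after their values were seen. Alternatives were TMM, DESeq2 size factors, the total without the members and the 100 genes of highest mean CPM, no filter, filterByExpr, DESeq2, limma-voom, halved counts, each library left out, and replicates 2 and 6 left out together. The *P* values of edgeR set the difference between the groups against the variation between 3 mice per group, estimated with information from all genes tested. The floor of 3 counts is given only as a level in CPM and entered no test.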

Additional observations from a re-analysis of the deposited data

How the results depend on the processing

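Under 15 alternatives, 135 values of the 9 members were computed, of which 116 kept the sign of the log2 fold change and 19 reversed it, and none passed the threshold. Scgb3a2 and Cbr2 kept their sign throughout. The number of genes called was 1 with DESeq2 (Awat1) and 0 to 1 with a library left out (H2-K1, without replicate 5). The log2 fold change of Scgb1a1 reversed to -0.025 with TMM, -0.012 with DESeq2 size factors and with DESeq2, and -0.0054 with the total without members and top genes. With replicates 2 and 6 left out together, values reversed to -0.93 for Scgb3a1, 0.080 for Aldh1a1, 0.0026 for Aldh1a7, -0.77 for Bpifb1, -0.69 for Reg3g, -0.45 for Fcgbp, -1.97 for Clca1 and -1.30 for Itln1. With 1 library left out the log2 fold change ranged from -0.14 to 0.17 for Scgb1a1, -0.53 to 0.74 for Scgb3a1, -0.13 to 0.063 for Aldh1a1, -0.90 to 0.0093 for Bpifa1, -0.41 to 1.77 for Bpifb1, -0.42 to 1.70 for Reg3g, -0.12 to 0.12 for Cyp2f2, -0.059 to 3.57 for Muc5ac, -0.21 to 3.01 for Fcgbp, -3.31 to 6.52 for Clca1 and -0.84 to 4.42 for Itln1. Among these, Scgb1a1 reversed without replicate 3 or 5, Aldh1a1 without 2, 4 or 6, and Bpifa1 without 1. The cause was not tested. Scaling moved the median of all genes by at most 0.03. No paired analysis was made, because the labels do not say which mice, if any, were littermates or otherwise paired.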

Other observations

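None of 10 alveolar type 2 genes and none of 8 alveolar type 1 genes had an unadjusted *P* under 0.05 (edgeR, background 5.66%), with median log2 fold changes of -0.03 and 0.0073. Sftpc, the surfactant protein C precursor of type 2 cells, was at 20390.2, 16447 and 19187 CPM in the RAG1-/- mice and 17861, 15470.0 and 12426 CPM in the RAG1-/-Sgo1-/+ mice. Ager, the type 1 cell receptor, was at 2677, 1786 and 2024 CPM in the RAG1-/- mice and 3086, 1971 and 1915 CPM in the RAG1-/-Sgo1-/+ mice. Of 8 general epithelial genes 0 had an unadjusted *P* under 0.05, with a median of 0.13 and a summed level of 1926 to 2378 CPM in RAG1-/- and 2086 to 2255 CPM in RAG1-/-Sgo1-/+. Basal cells had 0 of 6 genes at an unadjusted *P* under 0.05 and a median of 0.22. Trp63, the defining factor of basal cells, was at 6.62, 2.42 and 5.45 CPM in the RAG1-/- mice and 1.62, 2.22 and 9.98 CPM in the RAG1-/-Sgo1-/+ mice. Neuroendocrine cells had 0 of 6 such genes, a median of -0.28 and a summed level of 8.47 to 12.7 CPM in RAG1-/- and 7.17 to 11.1 CPM in RAG1-/-Sgo1-/+. Of the gland and cartilage genes only Sox9 had enough reads to be tested, with a level of 0.808 to 3.84 CPM.

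Of 9 neutrophil genes 4 had enough reads to be tested. Of the 4 genes tested 2 had an unadjusted *P* under 0.05 and were lower (background 2.52%), 0 were higher, and the median log2 fold change was -1.03. S100a9, a calcium-binding alarm protein of neutrophils, was at 50.3, 32.3 and 48.9 CPM in the RAG1-/- mice and 8.28, 26.3 and 13.7 CPM in the RAG1-/-Sgo1-/+ mice, with a log2 fold change of -1.43 (SE 0.35, edgeR unadjusted *P* = 0.00215, adjusted *P* = 0.832). Its partner S100a8 was at 44.7, 20.2 and 33.9 CPM in the RAG1-/- mice and 5.86, 16.7 and 20.6 CPM in the RAG1-/-Sgo1-/+ mice, with a log2 fold change of -1.23 (SE 0.40, edgeR unadjusted *P* = 0.0122, adjusted *P* = 0.832). Each RAG1-/-Sgo1-/+ library was below each RAG1-/- library for S100a9 (1 of 4 genes tested, background 11.8% with groups apart). Ly6g, Mpo and Elane of the same list had no reads, while the 4 genes tested had reads in every library. All 8 B-cell and plasma-cell genes were fitted lower, 5 with an unadjusted *P* under 0.05 (background 2.52%), with a median of -5.93 and their reads mostly in replicate 2.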
